A study of Mus musculus with 9 samples.

Results

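The expression of 10 genes of the Notch pathway was followed in RNA from whole kidneys of mouse embryos at E15.5. The genes are the receptors *Notch1*, *Notch2*, *Notch3* and *Notch4*, the ligands *Jag1*, *Dll1* and *Dll4*, the ligand-activating ubiquitin ligase *Mib2*, and the target genes *Hes1* and *Hey1*. They were chosen by name, and they are 10 of the 24138 loci of the deposited table. Each of the 10 is a locus that carries no other gene name.

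Notch receptors are single-pass membrane proteins that are activated by ligands on a neighbouring cell. Ligand binding leads to cleavage of the receptor by ADAM proteases and then by gamma-secretase, and the freed intracellular domain joins RBPJ and Mastermind proteins on DNA to activate targets such as the HES and HEY repressors. In the kidney the pathway is known for the segmentation of the nephron and the formation of podocytes, and in vessels for arterial identity, the restraint of sprouting and the maturation of mural cells.

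The libraries come from 3 genotypes, with 3 kidneys and 3 libraries of each. MUT kidneys were Foxd1GC/+;Ntn1fl/fl, HET kidneys were Foxd1GC/+;Ntn1fl/+ and WT kidneys were Ntn1fl/fl. MUT and HET share the GFP-Cre insertion at *Foxd1*, which drives Cre in the stromal progenitors and their descendants and takes away 1 *Foxd1* allele. WT kidneys carry 2 floxed *Ntn1* alleles and no Cre, and all mice were on the C57Bl6/J background with both sexes combined. The kidneys came from 3 crosses, and the labels do not say which kidney came from which cross, so the p-values below measure the spread between these kidneys. *Ntn1*, which encodes the guidance cue netrin 1, was at 17.8 to 28.9 FPKM in WT, 12.0 to 16.5 in HET and 10.8 to 16.5 in MUT, so the label check separated WT from the other genotypes but not HET from MUT. *Foxd1* itself was at 25.8 to 33.7 FPKM in WT, 20.2 to 21.7 in HET and 22.5 to 24.8 in MUT. FPKM counts fragments per kilobase of transcript, scaled to the library, so levels can be compared between genes. The depth of the libraries is unknown in reads, and no counting interval is given. The spacing of the lowest values put relative depth between 0.573 (WT-2) and 1.28 (MUT-1), with WT-1 set to 1. Markers of nephron progenitors (5 of 5), early nephrons (5 of 5) and the ureteric epithelium (5 of 5) were above the expression minimum of 5 FPKM.

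Some libraries stood apart. HET-2 held transcripts of liver genes, with a summed level of 620 FPKM over 6 genes against 27.4 to 51.9 in the other 8 libraries, and of adrenal genes, with 10.9 against 0.610 to 1.20. Libraries also differed in how they represented long and GC-rich transcripts. The length tilt, the median log2 deviation of the longest 20% of transcripts minus that of the shortest 20%, was 0.36 in WT-1 and 0.39 in MUT-1 but -0.27 in HET-1 and -0.25 in HET-2. The same measure for GC content was lowest in WT-3, at -0.37, and highest in HET-2, at 0.24. These values return below because most of the Notch genes have transcripts above the median in length (all but *Hes1* and *Hey1*) and in GC content (all but *Jag1*).

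Promoters were read from RefSeq for GRCm38.p6, which gave windows for 8 of the 10 genes and for 39 of 50 other pathway genes. The target genes *Hes1* and *Hey1* had no window, so no motif was searched in them. Each window printed here runs from 250 bases before the transcription start to 10 bases after it, 5′ to 3′ on the strand of the gene. *Notch1* and *Notch3* are shown because they are the receptors that lay higher in every MUT library than in every HET library. Capitals mark GGGCGG, the GC box bound by SP and KLF factors, on either strand. The *Notch1* window is chr2:26503813-26504072 and the *Notch3* window is chr17:32166881-32167140, both on the minus strand.

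Notch1: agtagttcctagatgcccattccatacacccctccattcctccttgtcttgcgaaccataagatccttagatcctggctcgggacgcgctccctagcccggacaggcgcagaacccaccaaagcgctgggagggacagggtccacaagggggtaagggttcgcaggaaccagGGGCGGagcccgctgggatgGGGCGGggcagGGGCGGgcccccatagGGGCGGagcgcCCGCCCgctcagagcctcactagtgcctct

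Notch3: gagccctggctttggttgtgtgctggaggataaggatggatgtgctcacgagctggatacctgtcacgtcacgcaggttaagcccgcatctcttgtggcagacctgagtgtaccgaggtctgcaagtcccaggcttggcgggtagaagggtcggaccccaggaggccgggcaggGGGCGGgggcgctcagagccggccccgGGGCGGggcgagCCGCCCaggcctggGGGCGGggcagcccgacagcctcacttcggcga

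*Notch1* holds 5 GC boxes within 78 bases of the start and *Notch3* holds 4 within 76 bases. These starts are those of RefSeq. On the minus strand the GENCODE annotation opens *Notch3* at 32166852, downstream of the RefSeq start, and *Notch1* at 26516663, upstream of its window. *Notch2* holds 7 in its window of 300 bases, while *Notch4*, *Dll1* and *Jag1* hold 0. Over windows of 300 bases, 6 of the 10 windows of the Notch genes have at least 1 GC box, and 35.66% of all 32851 mouse windows do. Counted by gene, 5 of 8 have one, against 38.2% of all genes with a window. The other pathway genes were similar, with a GC box in 31 of 51 windows and in 29 of 39 genes. The windows of the Notch genes have a median GC content of 61.85%, against 63.3% for the other pathway genes and 52.7% for all windows.

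The binding core of RBPJ, GTGGGAA, was searched on both strands, as was CACGTG, the E box that HEY and HES proteins can bind. In the *Lfng* window these letters overlap. None of the 10 windows of the 8 Notch genes holds either motif, and 6.38% and 7.15% of all windows hold them. Of the 51 windows of other pathway genes, 6 hold the RBPJ core (*Lfng*, *Psen2*, *Aph1a*, *Spen*, *Hes5* and *Hey2*) and 5 hold the E box (*Poglut1*, *Lfng*, *Adam10*, *Psen2* and *Nrarp*). *Hes5* and *Hey2*, 2 further target genes, are shown because they are the pathway genes with 2 RBPJ cores each, on opposite strands, and capitals mark them. The *Hes5* window is chr4:154960673-154960932 on the plus strand and the *Hey2* window is chr10:30842774-30843033 on the minus strand.

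Hes5: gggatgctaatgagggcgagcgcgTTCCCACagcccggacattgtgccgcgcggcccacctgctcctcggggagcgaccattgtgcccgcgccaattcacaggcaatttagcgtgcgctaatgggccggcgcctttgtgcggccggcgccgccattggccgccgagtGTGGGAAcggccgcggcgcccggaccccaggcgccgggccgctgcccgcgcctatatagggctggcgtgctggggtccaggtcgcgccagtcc

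Hey2: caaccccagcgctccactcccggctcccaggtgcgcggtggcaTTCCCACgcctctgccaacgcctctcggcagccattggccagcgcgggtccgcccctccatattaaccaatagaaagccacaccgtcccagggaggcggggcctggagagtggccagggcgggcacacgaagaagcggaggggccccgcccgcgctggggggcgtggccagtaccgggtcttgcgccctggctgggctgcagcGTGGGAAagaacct

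The cores start at -226 and -83 in *Hes5* and at -207 and -4 in *Hey2*, counted from the transcription start. A match is a description of the letters and not evidence of binding.

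The 2 target genes and *Jag1* were the most abundant of the 10 genes. Averaged over the 9 libraries, *Hes1* was at 54.3 FPKM, *Hey1* at 30.8 and *Jag1* at 25.3. *Hes1* exceeded *Hey1* in 9 of 9 libraries, and *Hey1* exceeded *Jag1* in 7 of 9. The receptors followed, with *Notch2* at 16.8, *Notch3* at 16.1 and *Notch1* at 13.5. *Notch2* was above *Notch3* in only 6 of 9 libraries, so their order did not hold beyond the spread, while *Notch3* was above *Notch1* in every library. *Dll1* was at 11.2, *Mib2* at 8.81, *Dll4* at 6.29 and *Notch4* at 4.85 FPKM. *Notch1* was above *Dll1* in 7 of 9 libraries, and each of the last 3 steps of this order was kept in 9 of 9. All 10 genes passed the minimum of 5 FPKM in at least 1 genotype of each comparison, *Notch4* only through the MUT mean against HET and through the WT mean in HET versus WT.

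**Figure D1:**
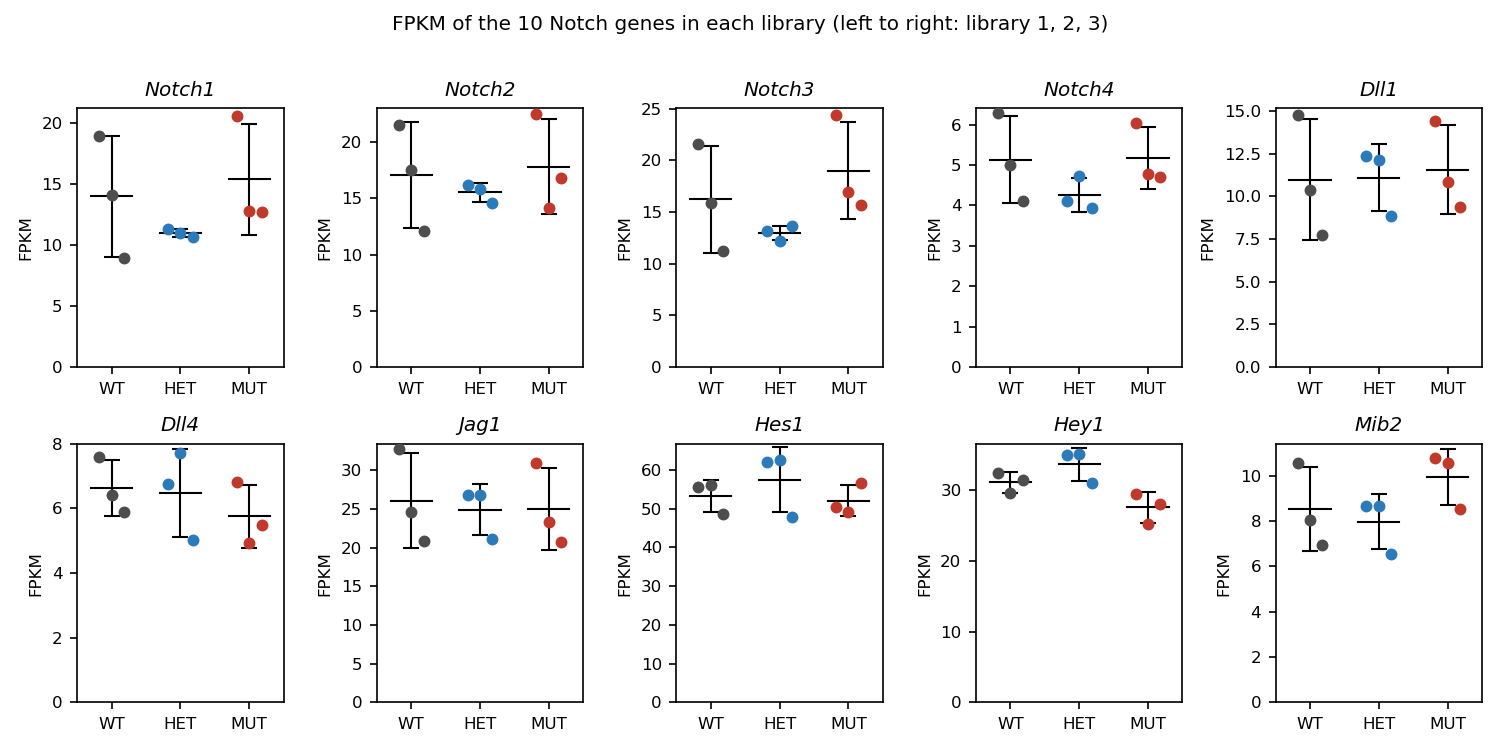
FPKM (y axis, from 0) of each Notch gene in the 3 libraries of WT, HET and MUT (x axis, libraries 1 to 3 from left to right within a genotype), with the mean as a horizontal bar and the SD as an error bar. The 3 MUT points lie above the 3 HET points for Notch1 and Notch3 and below them for Hey1, and WT-1 and MUT-1 are the highest libraries for many genes.

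*Foxd1GC/+;Ntn1fl/fl* kidneys were compared with *Foxd1GC/+;Ntn1fl/+* kidneys to ask what loss of the second *Ntn1* allele does where the Cre insertion is shared. *Notch3* and *Notch1* were higher in each MUT library than in each HET library, and *Hey1* was lower in each MUT library. The other 7 genes overlapped between the genotypes. No gene of the genome passed the adjusted threshold: limma with Benjamini-Hochberg adjustment called 0 of 10081 genes (0%), with adjusted p of 0.738 or more. It gave 636 genes (6.31%) an unadjusted p under 0.05, and 3 of the 10 Notch genes were among them. Libraries of the genotypes did not overlap for 977 genes (9.69%), also including 3 of the 10 Notch genes. The median log2 fold change of the 10 genes was 0.11, against -0.016 for all genes tested. In whole kidney, fewer cells of a type and less RNA per cell cannot be told apart.

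*Notch1* (chr2:26457902-26503822, minus strand, mm10) encodes the receptor with broad roles in arterial endothelium and nephron patterning. In the order of library 1, 2 and 3, which is kept below, it was at 18.9, 14.1 and 8.96 FPKM in WT, 11.3, 11.0 and 10.7 in HET, and 20.6, 12.8 and 12.7 in MUT. The HET libraries lay close together, the WT libraries spread on both sides of them, and MUT-1 was far above the other MUT libraries. On the log2(FPKM + 1) scale, where changes of low genes are understated, MUT exceeded HET by 0.41 (standard error 0.16, limma with Benjamini-Hochberg adjustment, adjusted p = 0.738). The unadjusted p was 0.0268, and the exact permutation test gave p = 0.1, the smallest that 3 libraries against 3 allow. The difference was 0.20 without MUT-1, with an unadjusted p of 0.0716, and 0.42 without HET-2.

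*Notch3* (chr17:32120893-32166852, minus strand) encodes the receptor best known in vascular smooth muscle cells and pericytes. Its FPKM was 21.6, 15.9 and 11.2 in the WT libraries, 13.1, 12.2 and 13.6 in the HET libraries, and 24.4, 17.0 and 15.7 in the MUT libraries. The lowest MUT library was above the highest HET library, and WT ranged from below every HET library to above MUT-2 and MUT-3. MUT exceeded HET by 0.49 on the log2 scale (standard error 0.15, limma with Benjamini-Hochberg adjustment, adjusted p = 0.738, unadjusted p = 0.00675), the largest difference of the 10 genes. The exact permutation test gave p = 0.1. Without MUT-1 the difference was 0.31 with an unadjusted p of 0.0150, and without HET-2 it was 0.45.

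*Notch2* (chr3:98013538-98150367, plus strand) encodes the receptor that is required for proximal nephron fates. It was at 21.5, 17.6 and 12.1 FPKM in WT, 16.2, 15.9 and 14.6 in HET, and 22.5, 14.2 and 16.8 in MUT. MUT-2 lay below every HET library and the groups overlapped, with a log2 difference of 0.16 (95% confidence interval -0.16 to 0.49). *Notch4* (chr17:34564295-34588543, plus strand), an endothelial receptor, was at 6.27, 5.002 and 4.12 FPKM in WT, 4.10, 4.73 and 3.94 in HET, and 6.05, 4.78 and 4.70 in MUT. The log2 difference between MUT and HET was 0.23 (interval -0.12 to 0.57), and HET-2 lay between the MUT libraries.

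The sum of the 4 receptors was 42.8 to 44.8 FPKM in HET, 48.7 to 73.5 in MUT and 36.4 to 68.3 in WT. The share of each receptor in this sum varied less than the sum itself. *Notch1* made up 24.6% to 28.1% of it over the 9 libraries and *Notch4* 8.23% to 11.3%. The share of *Notch2* was 34.1% to 36.2% in HET, above all WT libraries (31.5% to 33.4%) and all MUT libraries (29.1% to 33.7%). An exact permutation test gave p = 0.1 for HET against each of the others, the smallest that 3 libraries against 3 allow. These shares are of the deposited FPKM, and the receptors differ in length and GC content, for which the libraries are tilted. No share was computed after a correction for these tilts, so this separation was not tested against them. The share of *Notch3* was 33.1 ± 1.70% in MUT and 29.6 ± 1.98% in HET (mean ± SD, n = 3 each), and HET-3 at 31.8% overlapped the MUT range of 31.4% to 34.8% (exact permutation test, p = 0.2).

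Among the ligands, *Jag1*, *Dll1* and *Dll4* showed no separation of the genotypes. *Jag1* (chr2:137081451-137116520, minus strand), a Serrate-type ligand of nephron and vessel, was at 32.8, 24.6 and 20.9 FPKM in WT, 26.8, 26.8 and 21.1 in HET, and 31.0, 23.3 and 20.8 in MUT. The log2 difference between MUT and HET was -0.0065 (95% confidence interval -0.34 to 0.33). *Dll1* (chr17:15367354-15375823, minus strand), a Delta-type ligand of the early nephron, was at 14.8, 10.4 and 7.75 FPKM in WT, 12.3, 12.1 and 8.83 in HET, and 14.4, 10.9 and 9.38 in MUT. Its log2 difference was 0.048 (interval -0.31 to 0.41). Each genotype had 1 library under 10 FPKM.

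*Dll4* (chr2:119321199-119335666, plus strand), the ligand of arterial and sprouting endothelium, was at 7.58, 6.43 and 5.88 FPKM in WT, 6.75, 7.70 and 5.01 in HET, and 6.83, 4.94 and 5.50 in MUT. The deposited locus opens upstream of the annotated gene, which starts at 119325784. The log2 difference between MUT and HET was -0.14 (interval -0.51 to 0.23), and HET-1 and HET-3 lay within the MUT range. Of the summed ligand FPKM, *Jag1* made up 57.5% to 60.5% in all 9 libraries, *Dll1* 22.5% to 27.8% and *Dll4* 12.6% to 17.0%. The sum itself was 34.5 to 55.2 FPKM in WT, 35.0 to 46.7 in HET and 35.7 to 52.2 in MUT.

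*Mib2* (chr4:155654470-155669254, minus strand) encodes a ubiquitin ligase of Notch ligands. It was at 10.6, 8.06 and 6.94 FPKM in WT, 8.68, 8.65 and 6.56 in HET, and 10.8, 10.5 and 8.54 in MUT. MUT-1 and MUT-2 exceeded all HET libraries, while MUT-3 fell just below HET-1 and HET-2. The log2 difference was 0.29 (standard error 0.14, limma with Benjamini-Hochberg adjustment, adjusted p = 0.738, unadjusted p = 0.0585).

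In the deposited FPKM the 2 target genes varied least between libraries. *Hey1* (chr3:8663359-8667038, minus strand), a repressor induced by Notch in endothelium and mural cells, was at 32.4, 29.6 and 31.4 FPKM in WT, 35.0, 35.1 and 31.0 in HET, and 29.5, 25.2 and 28.0 in MUT. Each MUT library was below each HET library. MUT was lower than HET by a log2 fold change of -0.28 (standard error 0.11, limma with Benjamini-Hochberg adjustment, adjusted p = 0.738, unadjusted p = 0.0268, exact permutation test p = 0.1). The difference was -0.33 without MUT-1 and -0.25 without HET-2, where the unadjusted p was 0.102.

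*Hes1* (chr16:30065357-30067796, plus strand), a repressor with Notch-dependent and Notch-independent expression in many progenitors, was at 55.5, 56.0 and 48.6 FPKM in WT, 62.1, 62.5 and 47.8 in HET, and 50.3, 49.2 and 56.6 in MUT. HET held both the highest and the lowest library. The log2 difference between MUT and HET was -0.13 (95% confidence interval -0.43 to 0.16). *Hes1* was 60.7% to 66.9% of the sum of the 2 targets, with 65.3 ± 2.04% in MUT and 62.9 ± 1.91% in HET (mean ± SD, n = 3 each, exact permutation test p = 0.3).

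Marker lists of 6 cell types in which the Notch pathway acts were read beside these genes. The endothelial list (8 genes) summed to 275 to 301 FPKM in HET and 282 to 306 in MUT, and 0 of its 8 genes had an unadjusted p under 0.05. The arterial list (5 genes) summed to 49.5 to 58.9 in HET and 53.6 to 68.6 in MUT. Of its 4 tested genes, 1 was higher at that p, *Efnb2*, at 25.5 to 28.1 FPKM in HET and 28.4 to 40.9 in MUT (log2 difference 0.34, unadjusted p = 0.0277), and the median was -0.010. The mural and smooth muscle list (7 genes) summed to 188 to 235 in HET and 171 to 209 in MUT. Of its 6 tested genes, 1 was higher (*Rgs5*) and 3 were lower (*Acta2*, *Myh11* and *Actg2*) at an unadjusted p under 0.05. The mean FPKM of these 4 genes in MUT and WT was 60.0 and 61.5 for *Acta2*, 3.88 and 3.80 for *Myh11*, 4.71 and 4.22 for *Actg2*, and 47.9 and 47.2 for *Rgs5*. In HET the means were 78.1, 6.37, 11.4 and 36.8 FPKM in the same order, so *Myh11* and *Actg2* passed the minimum only through HET. HET-2 was the highest of all 9 libraries for *Acta2*, *Myh11* and *Actg2*. The stromal list (6 genes) summed to 430 to 570 in WT, 466 to 550 in HET and 576 to 615 in MUT, so all MUT libraries were above all HET libraries. This separation rested on *Col1a1*, a fibrillar collagen, at 143 to 173 FPKM in HET and 214 to 240 in MUT. Without it the sums overlapped, at 313 to 377 in HET and 345 to 375 in MUT. The median log2 fold change of the 5 stromal genes tested was 0.082, with 1 at an unadjusted p under 0.05. The podocyte list (5 genes) summed to 68.4 to 101 FPKM in HET and 68.2 to 135 in MUT, where MUT-1 and MUT-2 were high and MUT-3 was not. Its 4 tested genes all had log2 fold changes above 0, with a median of 0.27 and 0 at an unadjusted p under 0.05. In WT the list summed to 84.5 to 145 FPKM. The median of the 4 genes was 0.0059 in MUT versus WT, with 2 above 0 and 2 below, and -0.33 in HET versus WT, with all 4 below 0. The early nephron list (5 genes) summed to 231 to 266 in HET and 224 to 278 in MUT, with a median of -0.053 and 0 of 5 genes at that p. The part of these cell types in the *Notch1*, *Notch3* and *Hey1* values was not tested.

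**Figure D2:**
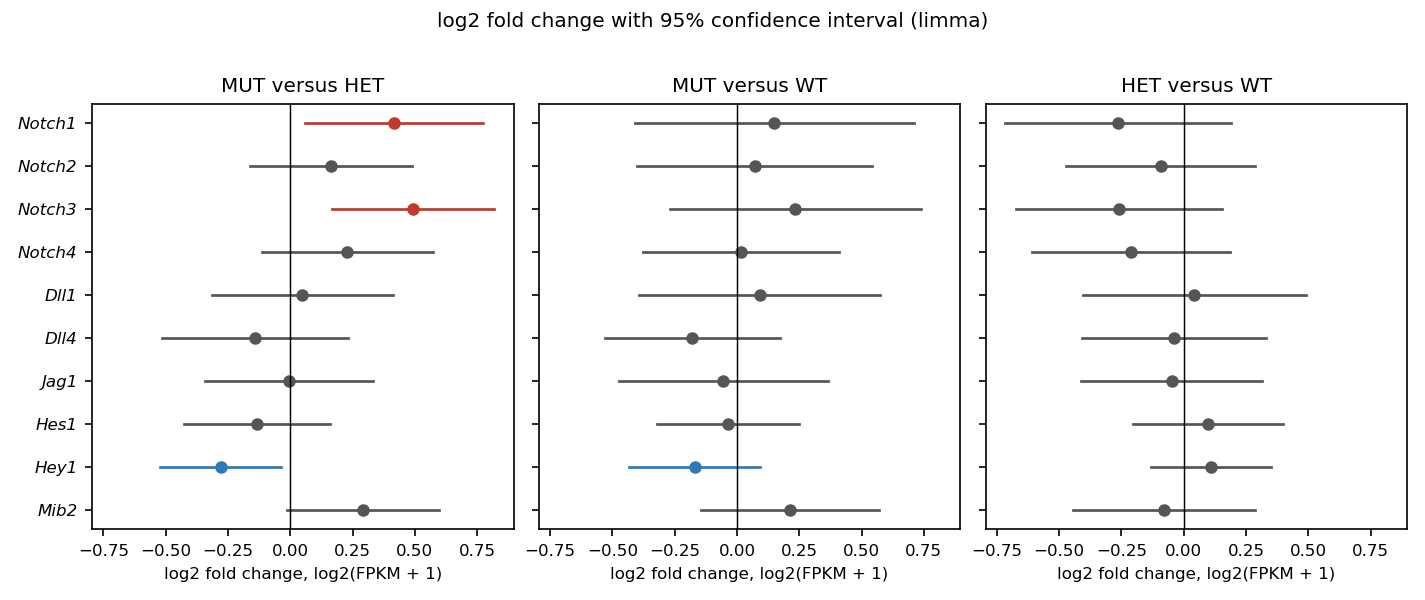
log2 fold change on the log2(FPKM + 1) scale (x axis) of each Notch gene (rows) in the 3 comparisons, with points for the estimate and lines for the 95% confidence interval from limma. Red marks a gene whose libraries are all higher in the first genotype, blue a gene whose libraries are all lower, and grey a gene whose libraries overlap. Notch1, Notch3 and Hey1 are coloured in MUT versus HET and only Hey1, just below the lowest WT library, in MUT versus WT.

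Against *Ntn1fl/fl* kidneys, which differ from MUT also by the Cre insertion at *Foxd1*, the Notch genes of MUT showed little separation. The 3 comparisons share libraries, so they are not independent. limma with Benjamini-Hochberg adjustment called 0 of 10096 genes (0%), while 65 (0.644%) had an unadjusted p under 0.05 and 268 (2.65%) had libraries that did not overlap. No Notch gene was among the 65. *Notch3* had a log2 difference of 0.23 (95% confidence interval -0.27 to 0.74) and *Notch1* of 0.15 (interval -0.41 to 0.71), with WT-1 second only to MUT-1 for both. *Hey1* was the only Notch gene whose libraries did not overlap, at 25.2 to 29.5 FPKM in MUT and 29.6 to 32.4 in WT. Its log2 difference was -0.17 (standard error 0.12, limma with Benjamini-Hochberg adjustment, adjusted p = 0.9998, unadjusted p = 0.179), and the nearest libraries, MUT-1 at 29.51 and WT-2 at 29.55, were almost equal. The median log2 fold change of the 10 genes was 0.044, against -0.0035 for all genes.

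HET kidneys, with the Cre insertion and 1 floxed *Ntn1* allele, were also set against WT. limma with Benjamini-Hochberg adjustment called 0 of 10105 genes (0%), with 108 (1.07%) at an unadjusted p under 0.05 and 324 (3.21%) without overlap. None of the 10 Notch genes was in either count. The receptors *Notch1* and *Notch3* had log2 differences of -0.26 each (95% confidence intervals -0.72 to 0.19 and -0.67 to 0.15), and *Hey1* had 0.11 (interval -0.13 to 0.35). The median of the 10 genes was -0.063, against 0.0075 for all genes.

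Over single libraries, 7 of the 10 Notch genes were highest in WT-1 or MUT-1, the libraries with the largest length tilts, and 4 were lowest in WT-3, the library with the lowest GC tilt. Of the 10164 loci whose mean reached 5 FPKM in any genotype, 7.88% were highest in WT-1 and 15.6% in MUT-1, and 19.5% were lowest in WT-3. Among the 20% of highest GC content, 45.9% were lowest in WT-3. The longest transcripts of *Notch1* to *Notch4* are 9488, 10500, 8016 and 6591 nt, against a median of 3380 nt over these loci. Those of *Hes1* and *Hey1* are 1468 and 2423 nt. The GC content was above the median of 49.8% for 9 of the 10 genes, and *Notch4* and *Mib2* had 61.2% and 61.1%. The highest library exceeded the lowest 2.30-fold for *Notch1*, 2.17-fold for *Notch3* and 1.85-fold for *Notch2*, but 1.31-fold for *Hes1* and 1.39-fold for *Hey1*.

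**Figure D3:**
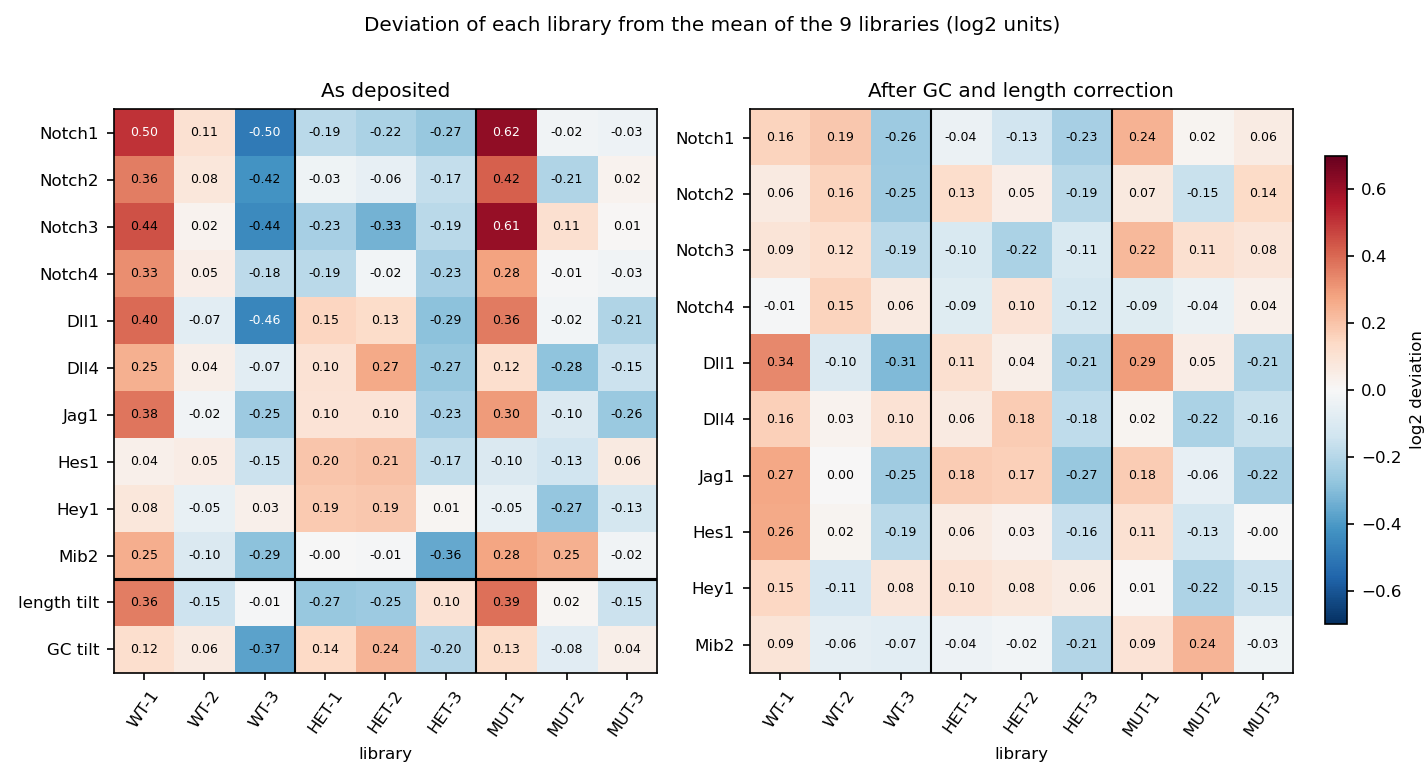
Deviation of each Notch gene (rows) in each library (columns) from its mean over the 9 libraries in log2 units, printed in each cell and coloured from blue (below) to red (above), as deposited on the left and after removal of each library's dependence on GC content and transcript length on the right. The lowest 2 rows on the left give the length tilt and GC tilt of the libraries, and Notch1 deviates by 0.62 in MUT-1 and -0.50 in WT-3 before the correction and by 0.24 and -0.26 after it.

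A spline on GC content and log2 transcript length was therefore fitted to each library and removed, an alternative added after the data were seen. The SD over the 9 libraries fell for all 10 genes, from 0.36 to 0.18 for *Notch1*, from 0.35 to 0.16 for *Notch3* and from 0.20 to 0.094 for *Notch4*, but only from 0.146 to 0.143 for *Hes1*. *Notch4* and *Mib2* (0.127) then varied less than *Hey1* (0.128) and *Hes1*. After this correction MUT exceeded HET by 0.24 for *Notch1* (standard error 0.086, unadjusted p = 0.0229) and by 0.28 for *Notch3* (standard error 0.071, unadjusted p = 0.00380). *Hey1* was at -0.20 (standard error 0.078, unadjusted p = 0.0323). The limma adjusted p with Benjamini-Hochberg adjustment was 0.554 for all 3 genes, and 8.86% of 9732 genes had an unadjusted p under 0.05. *Notch2* was then at 0.023, *Notch4* at 0.0043 and *Mib2* at 0.19. The median log2 fold change of the 10 genes fell to 0.020, against -0.00051 for all genes tested. With GC content alone the values were 0.43 for *Notch1*, 0.47 for *Notch3* and -0.23 for *Hey1*. The median of the 10 genes was then 0.13, against -0.0079 for all genes tested. Whether length or GC content produced the library differences was not tested.

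**Figure D4:**
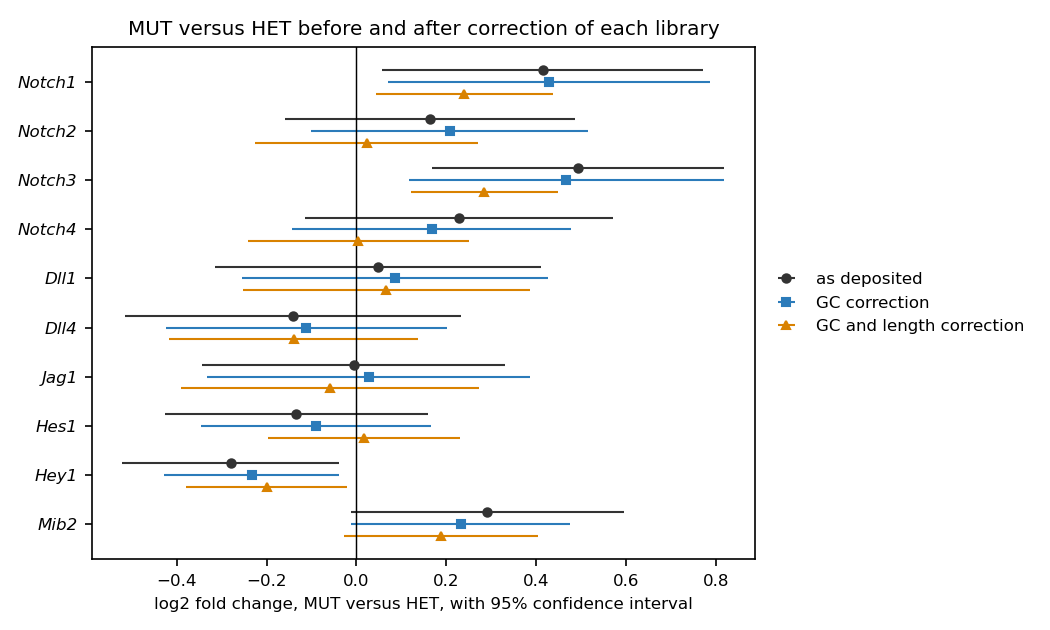
log2 fold change of MUT versus HET (x axis) with its 95% confidence interval for each Notch gene (rows), as deposited (circles), after the GC correction (squares) and after the GC and length correction (triangles). The intervals of Notch1, Notch3 and Hey1 stay on their side of 0 in all 3, with smaller differences after the last, while Notch2 and Notch4 move to 0.023 and 0.0043.

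The loci most like *Notch1* over the 9 libraries, among those 10164 loci, were *Zmiz2*, *Arid1a*, *Git1*, *Bcr* and *Fam117b*, with Pearson r from 0.986 to 0.988 in log2(FPKM + 1). *Notch3* ranked 21st by this measure (r = 0.974). The loci most like *Hey1* were *Afg3l2*, *Evc*, *Nrros*, *Stx1a* and *Tcirg1*, with r from 0.948 to 0.960. *Dll4* had r = 0.70 with *Hey1* and *Notch1* had r = -0.21. The 9 points share genotype, depth and the tilts above, and no test was made.

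Of 50 other genes of the pathway in 8 groups, 41 passed the minimum in MUT versus HET. Their log2 fold changes were above 0 for 31 and below 0 for 10, where 45.9% of all genes tested were above 0. The median was 0.068 against -0.016 for all genes. Of the 41, 0 passed the adjusted threshold, 5 were higher and 0 lower at an unadjusted p under 0.05, and 4 were higher and 1 lower without overlap. The background shares for these, in either direction, are 6.31% and 9.69%. Of all 10081 genes tested, 371 were higher and 265 lower at that p, and 523 were higher and 454 lower without overlap. Among the 5 are 2 enzymes that cut the receptor: *Furin*, the convertase of its maturation in the Golgi, and *Adam10*, the protease that cuts the ligand-bound receptor. *Maml1*, a Mastermind co-activator, and *Spen*, a co-repressor that binds with RBPJ, are also among them.

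*Furin* was at 22.2, 19.7 and 20.2 FPKM in HET and 32.3, 31.6 and 24.1 in MUT, and WT lay at 19.3 to 31.3. Its log2 difference was 0.47 (standard error 0.13, limma with Benjamini-Hochberg adjustment, adjusted p = 0.738, unadjusted p = 0.00334), and 0.38 after the GC and length correction. *Maml1* was at 12.8 to 13.7 FPKM in HET and 14.6 to 18.9 in MUT (log2 difference 0.28, unadjusted p = 0.0287, and 0.20 after that correction), and *Maml3* at 4.61 to 5.81 in HET and 5.89 to 7.64 in MUT (0.26, unadjusted p = 0.105, and 0.14 with an unadjusted p of 0.158 after it). *Spen* had a log2 difference of 0.67 with overlap at the edge, HET-3 at 6.86 FPKM and MUT-3 at 6.85, and 0.47 after the correction.

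*Mib1*, another ligase of Notch ligands, was at 9.27, 9.18 and 19.7 FPKM in HET and 23.9, 20.8 and 12.4 in MUT. HET-3 lay with the MUT libraries, and the log2 difference of 0.58 had an interval of -0.033 to 1.20. RBPJ itself, the DNA-binding partner, was at 17.1 FPKM in HET and 17.3 in MUT (log2 difference 0.013). The 5 glycosyltransferases that modify the receptor spanned -0.049 to 0.15, and the 9 negative regulators -0.11 to 0.13, with 0 of either group at an unadjusted p under 0.05.

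Of the further targets, *Hey2* has its promoter window shown above. It was at 5.93, 5.66 and 5.57 FPKM in HET and 4.75, 5.43 and 4.50 in MUT. All MUT libraries were lower, and the log2 difference was -0.19 (standard error 0.14, limma unadjusted p = 0.188). *Hey2* passed the minimum only through its HET mean of 5.72 FPKM, against 4.89 in MUT. *Heyl* had 0.12 with overlap, and *Hes5*, at 3.69 to 5.28 FPKM in HET and 3.79 to 4.46 in MUT, was under the minimum. In MUT versus WT 0 of 42 tested genes were without overlap. In HET versus WT 1 of 42 was, *Dtx1*, a ubiquitin ligase that binds the receptor. It was at 4.01 to 4.83 FPKM in WT and 4.96 to 5.40 in HET (log2 difference 0.17). *Dtx1* passed the minimum only through its HET mean of 5.12 FPKM, against 4.43 in WT.

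**Figure D5:**
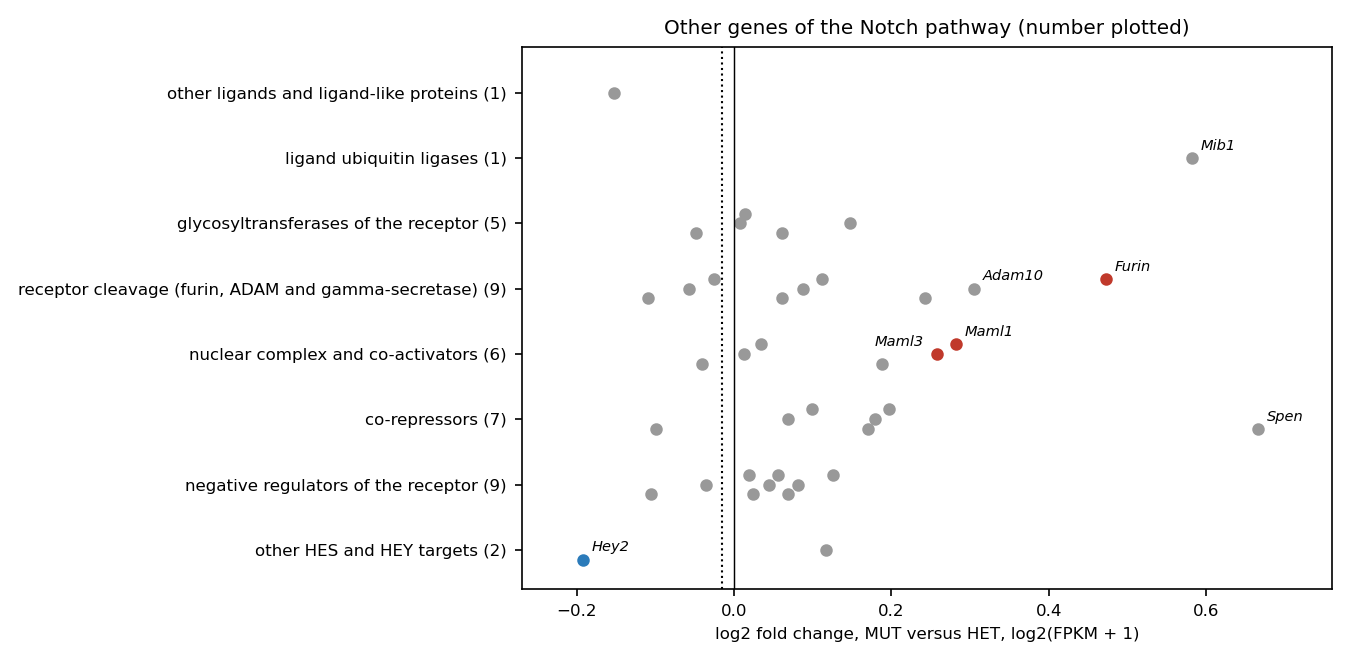
log2 fold change of MUT versus HET (x axis) for tested pathway genes outside the 10, grouped by role (rows, number plotted in brackets). Red marks genes whose MUT libraries all lie above HET (Furin, Maml1, Maml3), blue the gene whose MUT libraries all lie below (Hey2), and the dotted line is the median of all genes tested, -0.016.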

How the data were processed

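RNA from E15.5 whole kidneys of 3 genotypes, 3 libraries each, was prepared by the authors with a stranded mRNA kit, aligned with STAR to mm10, assembled with Cufflinks and quantified as FPKM with Cuffdiff (versions not given in the sources used here). The deposited FPKM were used unchanged, and the authors' average columns were not used. The test was limma 3.58.1 (R 4.3.3) on log2(FPKM + 1), for genes whose mean reached 5 FPKM in at least 1 of the genotypes compared (eBayes with a trend, two-sided, Benjamini-Hochberg adjustment over all genes tested, threshold 0.05), with the libraries of the 2 genotypes only. Exact permutation tests were two-sided. GC content and length of the longest transcript came from GENCODE vM21 (known for 94.48% of loci), and were removed by splines with 5 degrees of freedom per library as alternatives. The steps were tested on simulated data. Figures used Python 3.11.15 and matplotlib 3.10.9.

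The 10 genes, the pathway lists and the marker lists were chosen with earlier results of these data known. Named were all 10 genes in every library, up to 5 other pathway genes per comparison with the smallest unadjusted p among those whose libraries did not overlap, and the 5 loci most like *Notch1* and *Hey1*, with *Ntn1* and *Foxd1* as label checks. *Mib1*, *Spen*, *Adam10*, *Rgs5*, *Acta2*, *Myh11*, *Actg2*, *Col1a1*, *Efnb2*, the genes with a promoter motif, *Rbpj*, *Heyl* and *Hes5* were named after their values were seen. The values of 1 pathway gene that enters the counts are not reported here.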

Additional observations from a re-analysis of the deposited data

How the results depend on the processing

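The limits are the 3 libraries per genotype and the unknown read depth, beside length and GC tilts that reach 0.39 and -0.37 on the log2 scale in single libraries. No Notch gene passed an adjusted p of 0.05 in any of 568 re-estimates, and the smallest was 0.181. The count of genes past that threshold was 0 in all 3 comparisons under the 13 alternatives that kept every library, and 0 to 3 when 1 library was left out. The calls were mostly small RNA loci such as *Snora68*, *Snord35a* and *Mir5133*, 3 without MUT-3 (MUT versus HET), 3 without WT-1 (MUT versus WT) and 3 without WT-2 (HET versus WT), none of them a Notch gene.

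The median of the Notch genes tested in MUT versus HET ran from -0.11, without MUT-1, to 0.18, in MUT versus WT from -0.12 to 0.20 and in HET versus WT from -0.20 to 0.083 when 1 library was left out. Without MUT-1, *Notch4* fell under the minimum. The cause was not tested. Of 568 values 46 changed sign, and none of these belonged to a gene whose libraries did not overlap in that comparison. For such a gene, leaving 1 library out cannot change the sign, so those fits could not show a reversal. In MUT versus HET *Jag1* became 0.010 with median-ratio rescaling, 0.017 with quantile normalization and 0.027 with the GC correction, and *Hes1* became 0.017 with the GC and length correction. In MUT versus WT *Notch4* became -0.065 with the GC correction and -0.10 with the GC and length correction. In HET versus WT *Dll1* became -0.020 with the GC correction, and *Notch2* 0.0032, *Jag1* 0.017 and *Hes1* -0.058 with the GC and length correction. The replicate block gave the same values in each corrected fit.

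With 1 library left out, MUT versus HET ran from -0.0076 to 0.31 for *Notch2*, from -0.11 to 0.18 for *Dll1* and from -0.16 to 0.11 for *Jag1*. MUT versus WT ran from -0.12 to 0.38 for *Notch1*, -0.14 to 0.25 for *Notch2*, -0.11 to 0.15 for *Notch4*, -0.11 to 0.31 for *Dll1*, -0.21 to 0.12 for *Jag1* and -0.10 to 0.0020 for *Hes1*. HET versus WT ran from -0.31 to 0.083 for *Notch2*, -0.16 to 0.26 for *Dll1*, -0.15 to 0.11 for *Dll4*, -0.19 to 0.12 for *Jag1* and -0.20 to 0.071 for *Mib2*.

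Libraries of the same number did not deviate together in MUT versus HET (correlations -0.31, 0.059 and -0.13) or in HET versus WT (-0.19, -0.060 and 0.18). In MUT versus WT the correlations were 0.55, -0.26 and -0.027, so MUT-1 and WT-1 deviated together and the other pairs did not. With the replicate block in MUT versus HET, 494 genes had an unadjusted p under 0.05, and the adjusted p was 0.933 for *Notch1*, 0.869 for *Notch3* and 0.933 for *Hey1*. With the block 201 genes in MUT versus WT and 233 in HET versus WT had an unadjusted p under 0.05, against 65 and 108 without it. The share of higher genes among unadjusted calls in MUT versus HET was 58.3%, but 45.8% with all 9 libraries in 1 fit (400 genes) and 42.4% with no FPKM minimum (961 genes). In HET versus WT it was 50.9%, and 63.1% with all 9 libraries, 61.5% with quantile normalization and 40.9% with the GC and length correction (247 genes). In MUT versus WT it was 47.7%, and 61.9% with that correction (139 genes).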
